A study of Mus musculus with 21 samples.

Results

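The Toll-like receptor genes described here are Tlr1, Tlr2, Tlr3, Tlr4, Tlr6, Tlr7, Tlr8, Tlr9 and Tlr13, chosen by name. Each was found by matching its Ensembl identifier, without the version, to the mouse symbol, and all 9 were present among the 23250 genes of the deposited table. The study used RNA-seq to ask what a soluble form of the mannose receptor (MR, encoded by Mrc1) does to macrophages that have no MR of their own. All cells came from marrow of the C57BL/6J background. They were grown for 7 days with 2.5% supernatant from a GM-CSF-producing line, a growth factor that turns marrow precursors into macrophage-like cells. Every group, controls included, is described by the series as MR-deficient. The 7 groups held 3 libraries each, 21 in all. They were untreated cells at 0 h, cells given an isotype control for 4, 12 or 24 h, and cells given FcMR for 4, 12 or 24 h. FcMR joins the extracellular region of MR to the Fc region of human IgG1. Sex, age and number of mice were not given. No untreated library stood beside the later times, so the hours in culture cannot be told apart from the control protein. The labels do not say whether replicates came from separate mice or cultures, so p-values measure only the spread between these libraries.

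Toll-like receptors are membrane proteins that bind conserved microbial molecules and signal through the adaptors MyD88 and TRIF to NF-kB and interferon regulatory factors. In macrophages, TLR4 with its partner MD-2 recognises lipopolysaccharide at the cell surface, and TLR2 recognises bacterial lipopeptides there as a heterodimer with TLR1 or TLR6. TLR3, TLR7, TLR8, TLR9 and TLR13 sit in endosomes and sense nucleic acids, and they depend on the chaperone UNC93B1 and on proteases that trim their ectodomains.

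Libraries held 5532225 to 66729533 estimated counts, and 13468 genes passed the filter on low counts. All 9 receptors passed it. Mrc1 had 0 to 11 counts in every library. The labelled cell type was checked with 8 macrophage markers, all detected in every group, with a summed level of 20411 to 35843 CPM (the count relative to the TMM-scaled library total). The 4 B cell markers summed to 2.88 to 7.59 CPM, and the 4 dendritic cell markers to 1318 to 1847 CPM, of which Itgax made up 853 to 1233 CPM and Ccr7 238 to 705 CPM, so markers of both macrophages and dendritic cells were present. The 5 markers of plasmacytoid dendritic cells summed to 83.1 to 959 CPM, with Bst2 at 60.2 to 926 CPM, Tcf4 at 16.7 to 85.2 CPM and Siglech at no more than 1.55 CPM. The part of these cell types in the results was not tested. The GC tilt of a library was the average log2 level of its GC-rich genes (at least 57.7% GC) minus that of GC-poor genes (at most 41.2%), taken relative to all libraries. It was −0.84, −1.62 and 0.64 in the isotype 4 h libraries, −0.74, 0.74 and 0.82 in the FcMR 12 h libraries, and −0.38, −1.33 and 0.41 in the FcMR 24 h libraries, in replicate order. FcMR 12 h replicate 1 and isotype 4 h replicate 3 carry title numbers that stand in each other's place in the order of the groups, so results are also given without both where that changes a call.

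FcMR against isotype asked what the MR ectodomain adds to a control protein at the same time. Tlr3, Tlr7 and Tlr9 were higher and Tlr13 lower with FcMR at 4 h. At 12 h Tlr1, Tlr2, Tlr6 and Tlr7 were higher and Tlr13 lower. At 24 h Tlr2 and Tlr1 were higher and Tlr8, Tlr13 and Tlr9 lower. The largest difference was that of Tlr2 at 24 h, with a log2 fold change of 1.76 (SE 0.0969). A gene was called at an adjusted p under 0.05 in edgeR's quasi-likelihood test over all 13468 genes. The call of Tlr7 at 12 h was lost in 13 of 34 alternative fits, and that of Tlr9 at 24 h in 20 of 34. Other calls that were lost in some fits are given with each receptor.

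At 4 h, 4 of the 9 receptors were called, 3 higher and 1 lower, against a background over all genes of 17.7%, 8.62% higher and 9.13% lower. At 12 h, 5 of 9 were called, 4 higher and 1 lower, against a background of 16.1%, 8.61% higher and 7.49% lower. At 24 h, 5 of 9 were called, 2 higher and 3 lower, against 20.9%, 11.4% higher and 9.44% lower. The median log2 fold change of the 9 receptors was 0.21, 0.55 and 0.21 at the 3 times, beside −0.07, −0.02 and 0.01 over all genes. The 2 groups did not overlap for 6, 6 and 5 receptors, where 29.7%, 35.4% and 34.4% of all genes did not overlap.

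Over all genes at 4 h, 1161 were called higher and 1229 lower, a split of 48.6% higher that became 62.7% with RLE size factors, 64.4% with DESeq2 and 66.4% with limma on the authors' normalized values. It was 67.0% with the authors' factors, 63.8% after thinning, 72.4% with only the groups compared and 75.2% without a filter, where the median over all genes moved from −0.07 to 0.04. The count of receptors at 4 h also depended on the fit. It was 1 with only the 6 libraries compared, where 628 genes were called higher and 240 lower. After a correction for GC content it was 7, where 1980 genes were called higher and 1959 lower. It was 2 without FcMR 4 h replicate 1 or without isotype 4 h replicate 2. Leaving out 1 library at a time gave 1589 to 3151 called genes at 4 h. At 12 h the count of receptors was 3 without isotype 12 h replicate 1, where 1570 genes were called, beside 2169 with all libraries.

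**Figure D1:**
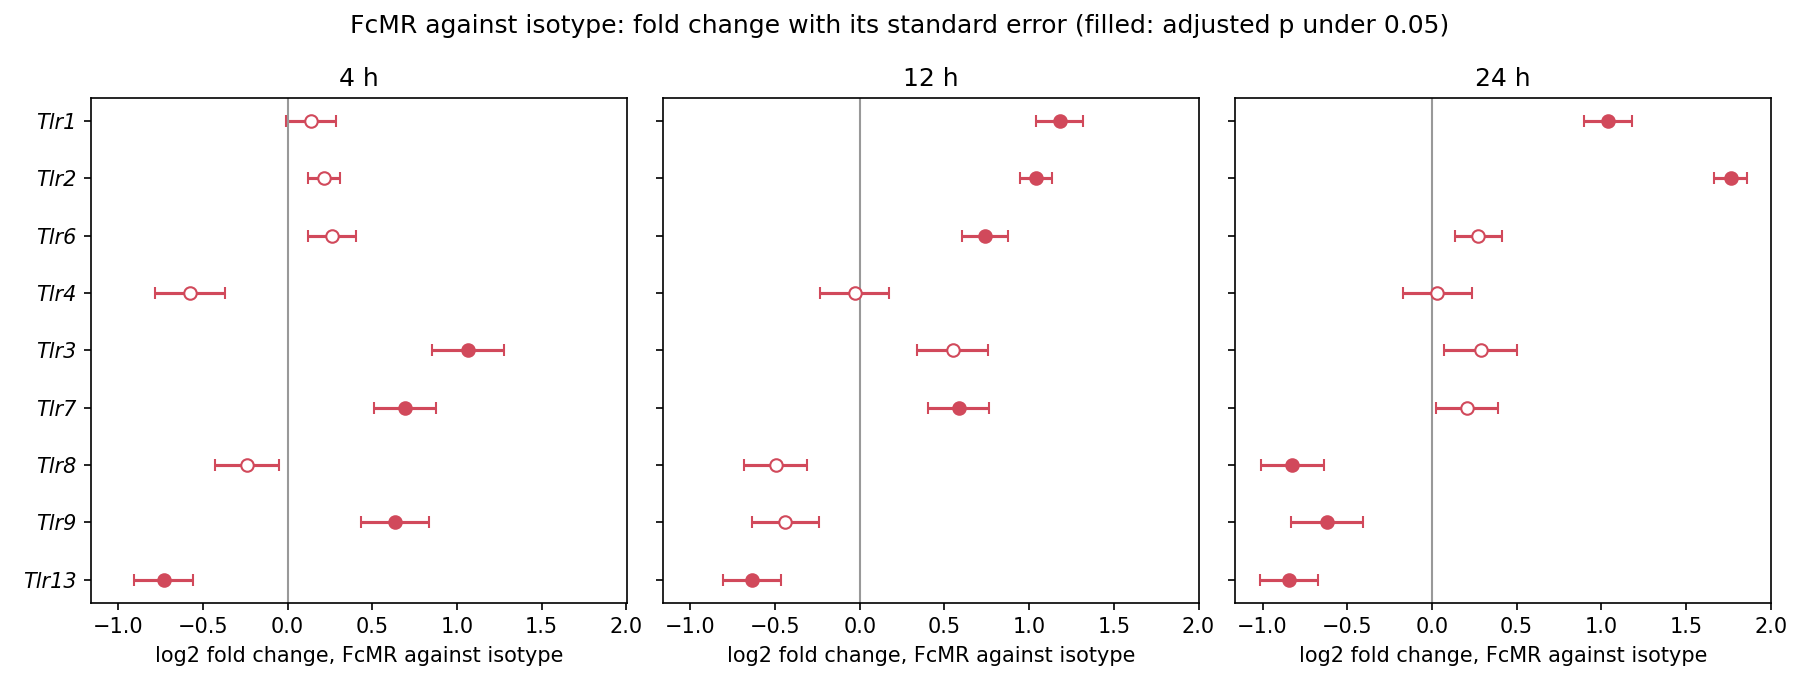
Each panel plots, for 1 time, the log2 fold change of FcMR against isotype (x axis) for the 9 receptors (y axis), with the standard error as the bar and filled points for an edgeR adjusted p under 0.05. Tlr1 and Tlr2 lie near 0 at 4 h and at 1.04 or more at 12 and 24 h, while Tlr13 lies between −0.84 and −0.64 at all 3 times.

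Among the surface receptors, Tlr2 (ENSMUSG00000027995.10, chromosome 3, 83836272 to 83841767, minus strand, GRCm38) is the shared subunit of the lipopeptide receptors. In untreated cells it was at 581, 644 and 678 CPM in the 3 libraries. After 4 h the isotype libraries had 857, 936 and 819 CPM and the FcMR libraries 1023, 990.0 and 1018 CPM. By 12 h levels were 319, 344 and 326 CPM with isotype and 744, 644 and 643 CPM with FcMR. Every isotype library had fallen to under the untreated range by then, while the FcMR libraries lay around its upper end. By 24 h the isotype libraries had 138, 122 and 135 CPM and the FcMR libraries 464, 491 and 385 CPM. The groups did not overlap at any time. FcMR against isotype gave log2 fold changes of 0.21 (SE 0.0936) at 4 h, 1.04 (SE 0.0946) at 12 h and 1.76 (SE 0.0969) at 24 h. The edgeR adjusted p was 0.128, 4.19e-07 and 5.45e-10 in that order. The difference at 4 h was called by DESeq2, with an adjusted p of 0.0429, and by edgeR after GC correction, with 0.0404. In bulk RNA, fewer cells that carry a transcript and less of it per cell cannot be told apart.

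Tlr2 and Tlr3 each had a NF-kB match in a window of 250 bases before a RefSeq start. The Tlr3 window lies inside the gene, and its match falls on annotated exon bases. The consensus of this factor, through which Toll-like receptors signal, was searched on both strands and matched in 3.90% of 32851 such windows. In Tlr2 a pair of overlapping matches lay 173 to 163 bases before the start. The gene as placed above begins right after the printed part, so these matches lie just before that beginning. Its window is shown because Tlr2 had the largest difference between FcMR and isotype. The part of the window outside annotated exons is printed from the RefSeq promoter table (GRCm38.p6), chr3:83841768-83841858, minus strand, with the matches in capitals.
Tlr2: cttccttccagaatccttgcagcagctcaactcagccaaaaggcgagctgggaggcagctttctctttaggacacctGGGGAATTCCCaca

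Tlr1 (ENSMUSG00000044827.10, chromosome 5, 64924679 to 64933563, minus strand) pairs with TLR2 for triacylated lipopeptides. It was at 2.23, 2.76 and 2.04 CPM in untreated cells, the second lowest level per length of the 9 receptors there. At 4 h it was at 27.4, 32.1 and 22.4 CPM with isotype and 28.9, 29.0 and 32.2 CPM with FcMR, and the groups overlapped. After 12 h they were 40.7, 49.4 and 49.7 CPM with isotype and 116, 99.01 and 102 CPM with FcMR. At 24 h they were 40.0, 43.8 and 42.9 CPM with isotype and 80.1, 105 and 74.2 CPM with FcMR. At both later times every FcMR library lay above every isotype library. The log2 fold change was 0.14 (SE 0.146) at 4 h, 1.18 (SE 0.14) at 12 h and 1.04 (SE 0.141) at 24 h, with edgeR adjusted p of 0.582, 8.77e-06 and 2.76e-05.

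Tlr6 (ENSMUSG00000051498.6, chromosome 5, 64952031 to 64960097, minus strand), next to Tlr1 on the chromosome, pairs with TLR2 for diacylated lipopeptides. Untreated cells had 10.4, 11.6 and 11.6 CPM. The 4 h isotype libraries had 26.1, 23.8 and 23.4 CPM and the FcMR libraries 27.1, 30.8 and 30.0 CPM. The 12 h values were 23.4, 28.2 and 26.3 CPM with isotype and 48.1, 39.1 and 42.4 CPM with FcMR. All FcMR libraries were above all isotype libraries at these times, by little at 4 h and by more at 12 h. The 24 h isotype libraries had 26.0, 22.8 and 31.5 CPM and the FcMR libraries 28.2, 39.9 and 28.4 CPM, and the groups overlapped. Tlr6 was called at 12 h alone, with a log2 fold change of 0.74 (SE 0.138) and an edgeR adjusted p of 0.000887. Its values were 0.26 (SE 0.142) at 4 h and 0.27 (SE 0.14) at 24 h, with edgeR adjusted p of 0.234 and 0.194, and the GC correction called it at 4 h with 0.0476.

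Tlr1 and Tlr6 share sequence, which is shown because estimated counts can move reads between the 2 genes. Of the 2995 windows of 31 bases in the longest coding transcript of Tlr1, 603 (20.1%) also occur in Tlr6, and 607 windows of Tlr6 (16.7%) occur in Tlr1. The other 7 receptors shared none with transcripts of another gene read in the same direction. Reverse complements were not searched. The coding sequences were identical at 76.4% of 2356 aligned bases, and the longest identical run held 229 bases, positions 1468 to 1696 of the Tlr1 coding sequence. Its first 60 bases, from the GRCm38 transcripts, are printed in lower case.
Tlr1 and Tlr6: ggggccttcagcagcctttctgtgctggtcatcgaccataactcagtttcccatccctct
With the counts of both genes summed, FcMR against isotype gave a log2 fold change of 0.20 (SE 0.124) at 4 h, 1.04 (SE 0.122) at 12 h and 0.79 (SE 0.122) at 24 h. The edgeR adjusted p was 0.311, 8.06e-06 and 0.000117, so the sum was called at the times at which Tlr1 was.

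Matches were also found before starts of Tlr1, Tlr6 and Tlr8. Tlr1 had the PU.1 word GAGGAAGT, named for a transcription factor of myeloid cells and found in 2.44% of windows, 23 to 16 bases before its start. A second annotated start of Tlr1 had the word TTCNNNGAA, the interferon-linked GAS element found in 7.02% of windows, 228 to 220 bases before it. That match fell on annotated exon bases inside the gene. Tlr8 had a GAS match 106 to 98 bases before its start. Tlr6 had overlapping matches to the interferon-stimulated response element (ISRE, searched as GAAA, any 2 bases and GAAA), found in 2.98% of windows. They lay 116 to 101 bases before 1 of its 2 annotated starts, inside the gene, and were read on the opposite strand. The other Tlr6 window, which spans the beginning of the gene (chr5:64960049-64960298), had no match. These elements, NF-kB and the AP-1 word described below for Tlr9 were searched in all 9 windows of the receptors. The Tlr13 window had no match, and Tlr4 and Tlr7 had no window to search. These letters are a description of the windows and show no binding. For Tlr1 and Tlr6 a window is printed from the RefSeq table (GRCm38.p6, minus strand), with the matches in capitals. The Tlr1 bases are chr5:64933564-64933808 and the Tlr6 bases chr5:64959167-64959416.
Tlr1: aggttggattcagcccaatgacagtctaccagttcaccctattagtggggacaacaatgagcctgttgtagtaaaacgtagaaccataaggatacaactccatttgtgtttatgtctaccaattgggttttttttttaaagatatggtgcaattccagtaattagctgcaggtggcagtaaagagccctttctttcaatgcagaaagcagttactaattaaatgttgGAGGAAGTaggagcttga
Tlr6: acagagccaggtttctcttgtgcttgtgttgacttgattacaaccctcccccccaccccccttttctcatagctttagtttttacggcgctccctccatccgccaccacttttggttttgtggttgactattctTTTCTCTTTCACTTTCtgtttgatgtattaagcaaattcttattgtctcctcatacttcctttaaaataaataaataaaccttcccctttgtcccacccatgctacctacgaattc

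Tlr4 (ENSMUSG00000039005.13, chromosome 4, 66827584 to 66930284, plus strand), the lipopolysaccharide receptor, was not called at any time. It was at 50.0, 56.7 and 56.6 CPM in untreated cells. At 4 h levels were 52.0, 75.6 and 37.9 CPM with isotype and 42.5, 35.3 and 32.2 CPM with FcMR. By 12 h levels were 49.1, 39.2 and 38.9 CPM with isotype and 48.8, 39.7 and 36.1 CPM with FcMR. The isotype 4 h group spread most, and its lowest library lay within the FcMR range. By 24 h the isotype libraries had 57.9, 57.0 and 55.9 CPM and the FcMR libraries 58.2, 71.6 and 44.1 CPM. FcMR against isotype gave −0.58 (SE 0.208), −0.03 (SE 0.204) and 0.03 (SE 0.204) on the log2 scale, with edgeR adjusted p of 0.0647, 0.96 and 0.949. The 4 h value was called in some other fits. Without isotype 4 h replicate 3 it was −0.79, with an edgeR adjusted p of 0.00788, without both libraries out of title order −0.79, with 0.00511, and after GC correction −0.41, with 0.00646. Cd14, which hands lipopolysaccharide to TLR4, was higher with FcMR at all 3 times, by 1.38 (SE 0.269), 1.56 (SE 0.269) and 2.19 (SE 0.276) on the log2 scale, with edgeR adjusted p of 0.00143, 0.000438 and 1.17e-05.

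**Figure D2:**
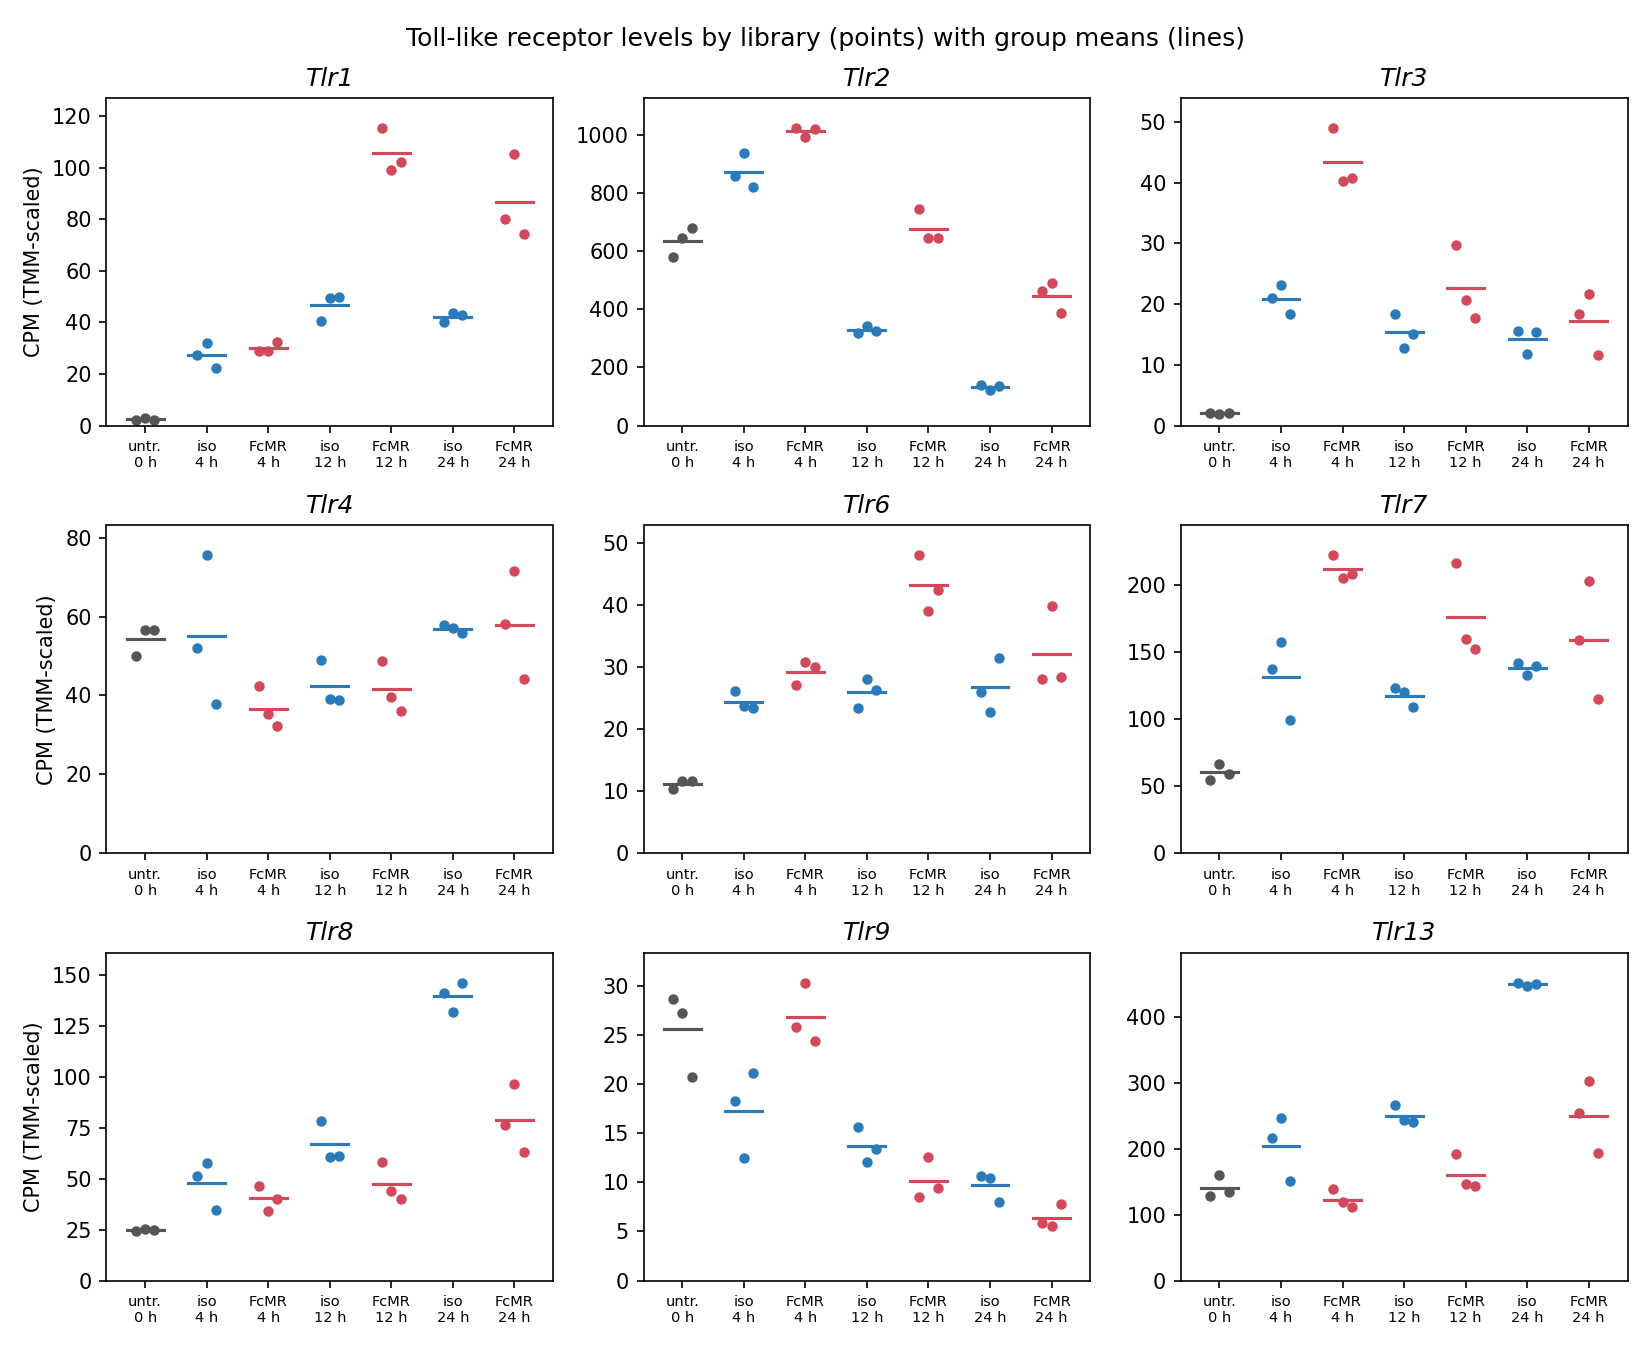
Each panel plots the level of 1 receptor in CPM (y axis, from 0) in the 7 groups (x axis, iso for isotype and untr. for untreated), with a point per library and a line at the mean of the 3 libraries. Tlr2 falls from 634 CPM in untreated cells to 132 CPM with isotype at 24 h and to 447 CPM with FcMR, while Tlr13 is at 451 CPM with isotype at 24 h and at 251 CPM with FcMR.

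Among the endosomal receptors, Tlr3 (ENSMUSG00000031639.12, chromosome 8, 45395665 to 45411080, minus strand) senses double-stranded RNA. Untreated cells had 2.04, 1.89 and 2.04 CPM, the lowest level per length of the 9 receptors. After 4 h the isotype libraries had 20.97, 23.1 and 18.3 CPM and the FcMR libraries 49.0, 40.2 and 40.8 CPM. Every FcMR library thus lay above every isotype library at 4 h. After 12 h they were 18.4, 12.8 and 14.99 CPM with isotype and 29.7, 20.7 and 17.7 CPM with FcMR. At 24 h they were 15.5, 11.8 and 15.4 CPM with isotype and 18.4, 21.6 and 11.6 CPM with FcMR. The groups overlapped at both later times. The log2 fold change was 1.06 (SE 0.213) at 4 h (edgeR adjusted p 0.00179). It was 0.55 (SE 0.209) at 12 h and 0.29 (SE 0.216) at 24 h, with edgeR adjusted p of 0.0897 and 0.41. At 12 h the GC correction called it at 0.39, with an adjusted p of 0.0186, and so did leaving out FcMR 12 h replicate 3 or FcMR 24 h replicate 3, with 0.0437 and 0.0457. Tlr3 overlaps Gm45542 on the opposite strand, and reads of the 2 cannot be told apart where the library does not keep the strand.

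Tlr7 (ENSMUSG00000044583.13, chromosome X, 167304929 to 167330558, minus strand), a sensor of single-stranded RNA, was at 54.6, 66.6 and 59.1 CPM in untreated cells. The 4 h isotype libraries had 137, 157 and 99.1 CPM and the FcMR libraries 222, 205 and 208 CPM. The 12 h values were 123, 120.3 and 109 CPM with isotype and 216, 159 and 152 CPM with FcMR. The groups did not overlap at these times. The 24 h isotype libraries had 142, 133 and 139.8 CPM and the FcMR libraries 159, 203 and 115 CPM, on both sides of the isotype range. FcMR against isotype gave log2 fold changes of 0.69 (SE 0.183), 0.58 (SE 0.181) and 0.21 (SE 0.181), with edgeR adjusted p of 0.0125, 0.0349 and 0.497. At 4 h the adjusted p was 0.0534 without FcMR 4 h replicate 1 and 0.0629 with only the libraries compared. The call at 12 h was lost, with edgeR adjusted p of 0.0503 to 0.214, on leaving out any isotype 12 h or isotype 24 h library, FcMR 4 h replicate 2 or 3, FcMR 12 h replicate 1 or FcMR 24 h replicate 1. Without both libraries out of title order it was 0.41, with an adjusted p of 0.0986. With all libraries kept, the call was also lost with limma on the authors' normalized values (0.0879) and in edgeR with the authors' factors (0.0638).

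Tlr8 (ENSMUSG00000040522.5, chromosome X, 167242696 to 167264329, minus strand), the neighbour and close relative of Tlr7, was lower with FcMR at 24 h. Untreated cells had 24.2, 25.2 and 24.7 CPM. At 4 h levels were 51.1, 57.5 and 34.5 CPM with isotype and 46.5, 34.3 and 40.2 CPM with FcMR, and the groups overlapped. By 12 h levels were 78.5, 60.7 and 61.2 CPM with isotype and 58.3, 43.8 and 40.3 CPM with FcMR. At 24 h they were 141, 132 and 146 CPM with isotype and 76.3, 96.8 and 63.3 CPM with FcMR. At 12 and 24 h every FcMR library lay under every isotype library. The log2 fold change was −0.24 (SE 0.19), −0.50 (SE 0.185) and −0.82 (SE 0.185), with edgeR adjusted p of 0.444, 0.0837 and 0.00325. The 12 h value was called after GC correction, at −0.64 with an adjusted p of 1.76e-05, and without FcMR 12 h replicate 1, isotype 4 h replicate 3 or both, with 0.0341, 0.0365 and 0.00671. At 4 h the sign turned with the authors' own scaling, to 0.15.

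Tlr13 (ENSMUSG00000033777.3, chromosome X, 106143204 to 106160493, plus strand) senses a sequence of bacterial ribosomal RNA in mice and has no human counterpart. It was at 129, 160.4 and 135 CPM in untreated cells. After 4 h the isotype libraries had 216, 247 and 151 CPM and the FcMR libraries 139, 119 and 111 CPM. After 12 h they were 266, 245 and 241 CPM with isotype and 193, 147 and 144 CPM with FcMR. Every FcMR library lay under every isotype library at both times. At 24 h the isotype libraries stood close together at 453, 448 and 451 CPM, and the FcMR libraries had 254, 304 and 194 CPM. FcMR against isotype gave −0.73 (SE 0.174), −0.64 (SE 0.173) and −0.84 (SE 0.173) on the log2 scale, with edgeR adjusted p of 0.0065, 0.0154 and 0.00153. The call at 4 h was lost without FcMR 4 h replicate 3 (adjusted p 0.0749) or isotype 4 h replicate 2 (0.061). The call at 12 h was lost without FcMR 12 h replicate 2 or 3 or isotype 12 h replicate 1, with edgeR adjusted p of 0.0784, 0.0812 and 0.0714. The summed level of the 8 macrophage markers was 31625 to 35843 CPM with isotype at 24 h and 25834 to 27760 CPM with FcMR, most of it Lyz2 at 26514 to 30533 CPM and 21025 to 22875 CPM. Of the 8 markers, Lyz2, Itgam, Mertk and Fcgr1 were lower in every FcMR library, Adgre1 was higher at 1304 to 1719 CPM against 806 to 881 CPM, and Csf1r, Cd68 and Ptprc overlapped. The part of these markers in the difference was not tested.

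Tlr9 (ENSMUSG00000045322.10, chromosome 9, 106222598 to 106226883, plus strand), the sensor of unmethylated CpG DNA, was higher with FcMR at 4 h and lower at 24 h. Untreated cells had 28.7, 27.3 and 20.8 CPM. The 4 h isotype libraries had 18.2, 12.4 and 21.1 CPM and the FcMR libraries 25.8, 30.3 and 24.4 CPM. The 12 h values were 15.6, 12.0 and 13.4 CPM with isotype and 8.51, 12.6 and 9.42 CPM with FcMR. The groups overlapped at 12 h and not at 4 h. By 24 h the isotype libraries had 10.7, 10.4 and 7.98 CPM and the FcMR libraries 5.86, 5.59 and 7.80 CPM, so that the highest FcMR library lay just under the lowest isotype library. These FcMR values rest on 57 to 152 counts. The log2 fold change was 0.63 (SE 0.199), −0.44 (SE 0.199) and −0.62 (SE 0.213), with edgeR adjusted p of 0.0345, 0.161 and 0.048.

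Both calls of Tlr9 were close to the threshold. At 4 h the edgeR adjusted p was 0.0579 without FcMR 4 h replicate 1, 0.143 without FcMR 4 h replicate 2, 0.0586 without isotype 4 h replicate 1 and 0.123 without isotype 4 h replicate 2. The call at 24 h was lost in 20 of 34 alternatives, with adjusted p up to 0.191. Among these were the fits without untreated replicate 1 or 2, FcMR 4 h replicate 1 or 2, isotype 4 h replicate 1, FcMR 12 h replicate 3, any isotype 12 h library, FcMR 24 h replicate 1 or 2, or isotype 24 h replicate 1 or 2. Its window held the AP-1 word TGANTCA, found in 6.75% of windows, 58 to 52 bases before the start. It is printed because Tlr9 was the endosomal receptor with a level under the untreated one at 12 and 24 h in both treatments (GRCm38.p6, chr9:106222348-106222597, plus strand, match in capitals).
Tlr9: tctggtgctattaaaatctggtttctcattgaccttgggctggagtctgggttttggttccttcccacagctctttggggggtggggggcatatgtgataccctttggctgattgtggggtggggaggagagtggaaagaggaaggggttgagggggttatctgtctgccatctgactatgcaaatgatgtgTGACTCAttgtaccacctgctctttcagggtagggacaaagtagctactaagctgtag

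In isotype 4 h and FcMR 24 h, the levels of several receptors followed the GC tilt of the library. In isotype 4 h, replicate 2, with the most negative tilt, had the highest Tlr4, Tlr7, Tlr8 and Tlr13 and the lowest Tlr9, and replicate 3, with a positive tilt, had the reverse. The same order held in FcMR 24 h, where replicate 2 was highest and replicate 3 lowest for Tlr4, Tlr7, Tlr8 and Tlr13, and replicate 2 was lowest and replicate 3 highest for Tlr9. It did not hold in every group. In FcMR 4 h, replicate 3 had the most negative tilt, at −0.50, and the lowest Tlr4 and Tlr13. In isotype 12 h, replicate 1 had the lowest tilt, at 0.60, and the highest Tlr9. The part of the tilt in these levels was not tested. The transcript GC content was 39.4% for Tlr4, 40.0% for Tlr3, 40.1% for Tlr8, 41.0% for Tlr7 and 43.6% for Tlr13, and 56.2% for Tlr9. Tlr1, Tlr6 and Tlr2 had 45.1%, 45.6% and 49.3%, beside a median of 49.5% over genes. After GC correction the log2 fold changes of FcMR against isotype were 1.09 and 0.92 for Tlr1, 1.02 and 1.71 for Tlr2 and −0.75 and −0.98 for Tlr13 at 12 and 24 h. All 6 of these kept their sign and their call. For Tlr9 at 24 h the corrected value was −0.44, with an edgeR adjusted p of 0.0826.

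A joint test of a change in the FcMR effect with time called Tlr1, Tlr2 and Tlr9, with edgeR adjusted p of 0.00415, 2.83e-06 and 0.0127, 3 of 9 receptors where 11% of all genes were called. The effect of FcMR on Tlr2 and Tlr1 was larger at 12 and 24 h than at 4 h, and that on Tlr9 was positive at 4 h and negative later. For the other receptors the adjusted p ran from 0.179 for Tlr6 to 0.872 for Tlr13. A different time course was therefore not shown for Tlr3, Tlr6, Tlr7 or Tlr8, although each was called at some times and not at others. After GC correction the joint test called 6 receptors, Tlr3, Tlr7 and Tlr8 besides these 3. More of all genes were called in that fit too, and their number is given with the dependence on processing.

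Isotype against untreated asked how far the receptors moved in the control cells, whose libraries also serve as controls for FcMR. Tlr1 and Tlr3 rose most, and Tlr6, Tlr7, Tlr8 and Tlr13 rose at every time. Tlr2 rose at 4 h and fell afterwards, and Tlr9 fell throughout. Of the 9 receptors, 7 were called higher and 1 lower at 4 h, against a background over all genes of 35.6%, 20.4% higher and 15.2% lower. At 12 h 6 were called higher and 2 lower, against 41.6%, 22% higher and 19.6% lower. At 24 h the numbers were again 6 and 2, against 42.2%, 21.3% higher and 20.9% lower. Of the called genes at 4 h 57.2% were higher, which became 45.3% after GC correction, 44.9% with the replicate block besides, and 45.5% without a filter, where the median over all genes moved from −0.00034 to −0.12. The groups did not overlap for 6, 9 and 8 receptors, against 42.4%, 61.8% and 62.7% of all genes. The median log2 fold change of the receptors was 0.95, 0.96 and 1.25, beside −0.00034, 0.03 and −0.04 over all genes.

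For Tlr1 the log2 fold change of isotype against untreated was 3.50 (SE 0.174), 4.28 (SE 0.173) and 4.14 (SE 0.174) at 4, 12 and 24 h. For Tlr3 it was 3.38 (SE 0.255), 2.96 (SE 0.25) and 2.84 (SE 0.254). All 6 of these edgeR adjusted p were at most 6.98e-08. Tlr8 rose by 0.95 (SE 0.192), 1.44 (SE 0.19) and 2.50 (SE 0.196), and Tlr13 by 0.53 (SE 0.173), 0.83 (SE 0.173) and 1.67 (SE 0.177). Tlr6 rose by 1.12, 1.21 and 1.25, and Tlr7 by 1.12, 0.96 and 1.20. Tlr2 had 0.46 (SE 0.0938), −0.94 (SE 0.0945) and −2.27 (SE 0.0985), with edgeR adjusted p of 0.000918, 2.87e-07 and 7.61e-12. Tlr9 had −0.56 (SE 0.198), −0.89 (SE 0.195) and −1.39 (SE 0.203), with edgeR adjusted p of 0.0359, 0.00126 and 2.39e-05. Tlr4 was not called, at 0.01, −0.36 and 0.06. At 12 h it was called lower after GC correction, with or without the replicate block, and with only the groups compared.

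The 4 h calls of Tlr9 and Tlr13 in the control cells were not stable. For Tlr13, whose edgeR adjusted p was 0.0235, the call was lost without isotype 4 h replicate 1 (0.0893) or 2 (0.179), without untreated replicate 1 (0.0929) or 3 (0.0733), and after GC correction (0.0701). For Tlr9 it was lost without isotype 4 h replicate 1 (0.0559) or 2 (0.137), without untreated replicate 1 (0.128) or 2 (0.101), and after GC correction (0.24). Tlr8 at 4 h (edgeR adjusted p 0.000852) was at 0.58 and not called with limma on the authors' normalized values (0.0615), which also lost Tlr13 (0.0587). With only the groups compared the adjusted p was 0.113 for Tlr13 and 0.111 for Tlr9, and without a filter it was 0.112 for Tlr13. The GC correction turned Tlr4 at 4 h to −0.41, with an adjusted p of 0.0033. Markers of neutrophils also fell over these times. Their 6 genes summed to 1062 to 1250 CPM in untreated cells, to 854 to 1159 CPM with isotype and 817 to 979 CPM with FcMR at 4 h, to 250 to 325 CPM and 275 to 478 CPM at 12 h, and to 149 to 171 CPM and 194 to 206 CPM at 24 h. Most of the sum in untreated cells was S100a8 at 384 to 453 CPM and S100a9 at 646 to 754 CPM. Camp was there at 16.3 to 22.6 CPM, and Ly6g, Mpo and Elane at no more than 7.60, 8.45 and 7.38 CPM. At 24 h, 3 of the 6 were at or under 3 counts in every FcMR library and 1 in every isotype library, and Elane was at 0 in every FcMR library. Their part in the fall of Tlr2 and Tlr9 was not tested.

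Against untreated cells, the FcMR libraries gave 6 receptors called higher and 1 lower at 4 h, 5 and 1 at 12 h, and 6 and 2 at 24 h, where 48.2%, 48.1% and 51.4% of all genes were called. Of all genes, 22.3%, 24.7% and 26% were called higher and 25.9%, 23.4% and 25.4% lower. This comparison shares its untreated libraries with the previous one. The groups did not overlap for 7, 7 and 8 receptors, against 64.4%, 56.3% and 56.1% of all genes. Tlr1 rose by 3.64, 5.46 and 5.18 on the log2 scale and Tlr3 by 4.45, 3.51 and 3.13. Tlr2 was at 0.67 (SE 0.0939) at 4 h, 0.09 (SE 0.0935) at 12 h and −0.51 (SE 0.0938) at 24 h, with edgeR adjusted p of 1.18e-05, 0.439 and 0.000221. Tlr13 was at −0.20, 0.19 and 0.83 and was called at 24 h alone, with an edgeR adjusted p of 0.000672. Tlr9 was at 0.08, −1.33 and −2.01, called at 12 and 24 h with edgeR adjusted p of 2.14e-05 and 3.03e-07. Tlr4 was called lower at 4 h, at −0.57 (SE 0.205) with an edgeR adjusted p of 0.0305. That call was lost without untreated replicate 2 (0.0752) or 3 (0.0759) and without FcMR 4 h replicate 2 (0.107) or 3 (0.16). It was also lost with RLE size factors (0.0576), without a filter (0.0509), after thinning (0.0573), with limma on the authors' normalized values (0.105) and in edgeR with the authors' factors (0.0893). At 12 h Tlr4 was at −0.39 with an edgeR adjusted p of 0.125, and without both libraries out of title order it was at −0.50, with 0.0298. It was also called lower at 12 h after GC correction, with or without the replicate block.

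Levels of different receptors were compared per length, as CPM per kb of the longest coding transcript. In untreated cells Tlr2 led at 210.4 CPM per kb, followed by Tlr13 at 34.8, Tlr7 at 15.4 and Tlr4 at 13.4. Tlr9 at 7.35 and Tlr8 at 7.19 did not differ beyond their spread, and Tlr6 at 3.05, Tlr1 at 0.776 and Tlr3 at 0.452 CPM per kb closed the order. Tlr2 led in 6 of the 7 groups. With isotype at 24 h Tlr13 led at 111 CPM per kb, and Tlr2 at 43.7 and Tlr8 at 40.8 followed with overlapping ranges. With FcMR at 24 h the order was Tlr2 at 148, Tlr13 at 61.8, Tlr7 at 40.8 and Tlr1 at 28.6 CPM per kb, and the last 3 of these overlapped with their neighbours. At 4 h with FcMR, neighbours from Tlr8 at 11.8 down to Tlr9 at 7.72 CPM per kb all overlapped.

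At 12 h the order began with Tlr2 in both treatments. With isotype it was Tlr2 at 109, Tlr13 at 61.7, Tlr7 at 30.1, Tlr8 at 19.5 and Tlr1 at 15.4 CPM per kb, with no overlap between neighbours. With FcMR it was Tlr2 at 225, Tlr7 at 45.1, Tlr13 at 39.7 and Tlr1 at 34.9 CPM per kb, where Tlr7, Tlr13 and Tlr1 overlapped with their neighbours. Tlr9 was last with FcMR at 12 h, at 2.92 CPM per kb.

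Summed over the 9 receptors, the level per length was 293 ± 19.9 CPM per kb (SD, n = 3) in untreated cells. It was 426 ± 47.7 with isotype and 476 ± 12.9 with FcMR at 4 h, and 261 ± 6.57 and 388 ± 44.2 at 12 h. At 24 h it was 272 ± 7.31 with isotype and 331 ± 58.3 CPM per kb with FcMR. The groups did not overlap at 12 h. Tlr2 made up 71.8% ± 1.803 of the sum in untreated cells (SD, n = 3). Its share was 68.1% with isotype and 70.4% with FcMR at 4 h, 41.9% and 58.0% at 12 h, and 16.03% and 45.1% at 24 h. The 5 nucleic acid sensors took 22.3% in untreated cells, 25.1% and 23.9% at 4 h, 45.5% and 27.4% at 12 h, and 71.0% ± 0.466 with isotype against 39.4% ± 2.32 with FcMR at 24 h. A share of one receptor moves with the levels of the others. With 3 libraries against 3, an exact permutation test of such a share cannot give a p under 0.1.

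**Figure D3:**
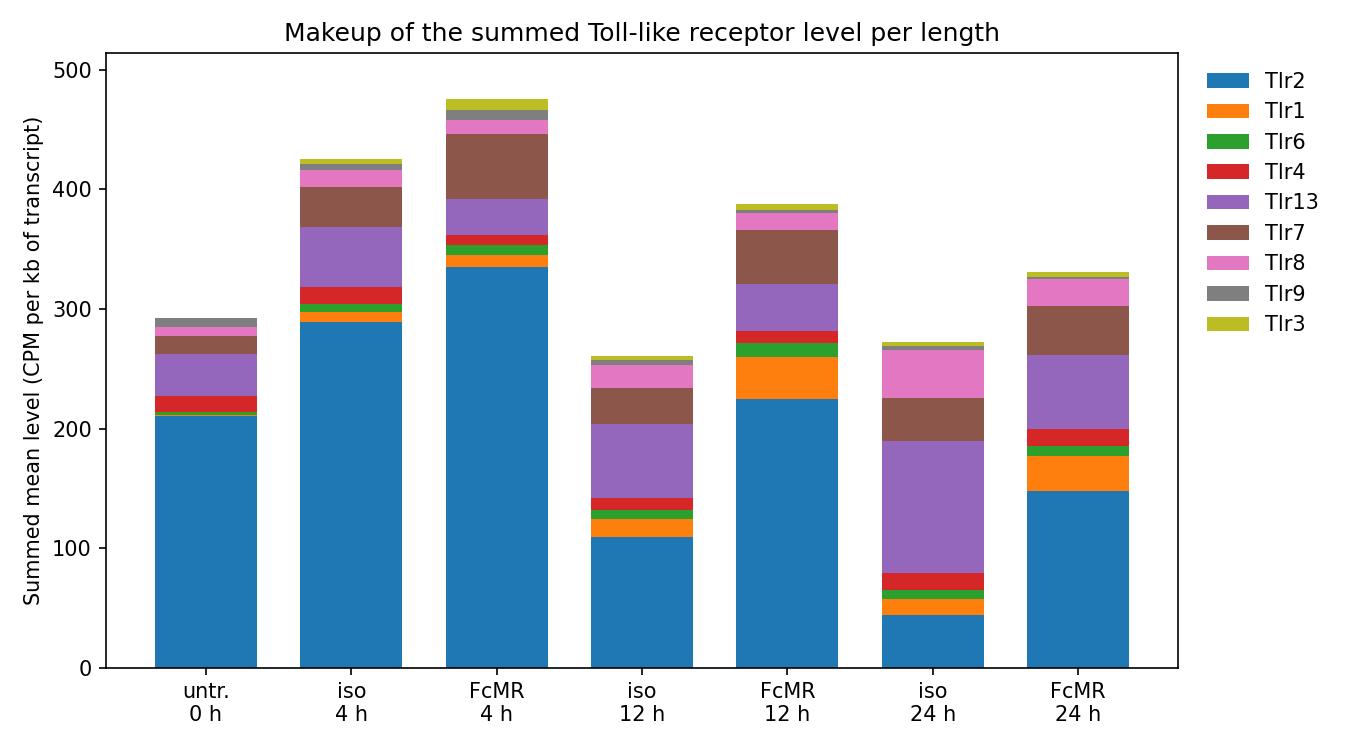
Stacked bars plot the mean level per length of the 9 receptors in each group (y axis, CPM per kb, from 0), with a colour per receptor. Tlr2 makes up most of the bar in untreated cells and at 4 h, and Tlr13 is the largest piece with isotype at 24 h.

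The ratio of Tlr1 to Tlr6, the alternative partners of TLR2, was 0.261, 0.289 and 0.214 in the untreated libraries on the scale of level per length. At 4 h it was 1.28, 1.64 and 1.16 with isotype and 1.30, 1.14 and 1.31 with FcMR. At 12 h it was 2.11, 2.13 and 2.30 with isotype and 2.92, 3.08 and 2.93 with FcMR. At 24 h the groups were again apart, at 1.87, 2.33 and 1.65 with isotype and 3.46, 3.21 and 3.18 with FcMR. Because Tlr1 and Tlr6 share sequence, their ratio depends on how shared reads were assigned, which the summed counts cannot check. In the endosomal pair, Tlr7 exceeded Tlr8 by a factor of 1.99, 2.33 and 2.11 in untreated libraries. With isotype this ratio was 2.36, 2.40 and 2.53 at 4 h, 1.38, 1.74 and 1.57 at 12 h, and 0.882, 0.888 and 0.842 at 24 h. With FcMR it was 4.21, 5.26 and 4.55 at 4 h, 3.27, 3.20 and 3.32 at 12 h, and 1.83, 1.85 and 1.59 at 24 h. At each time all FcMR libraries lay above all isotype libraries. The transcript GC content was 41.0% for Tlr7 and 40.1% for Tlr8, and its part in the ratio was not tested.

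**Figure D4:**
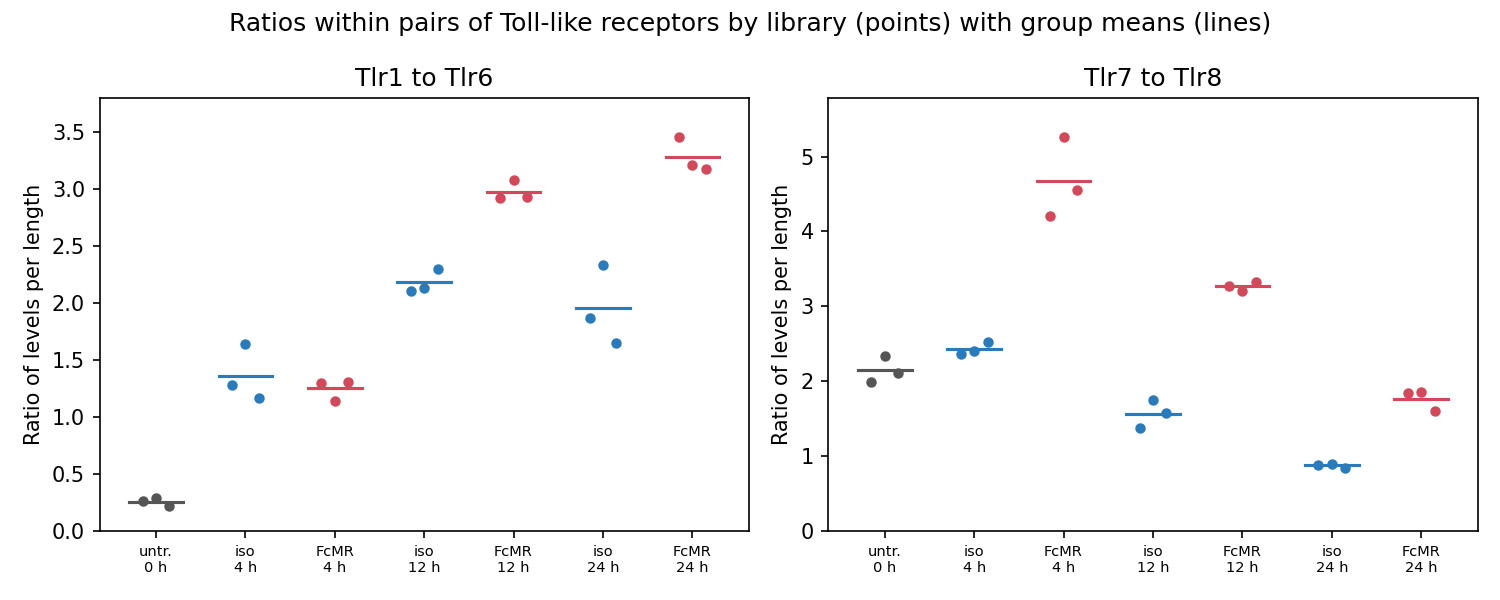
The panels plot the ratio of Tlr1 to Tlr6 and of Tlr7 to Tlr8, each as levels per length (y axis, from 0), in the 7 groups (x axis), with a point per library and a line at the group mean. The ratio of Tlr7 to Tlr8 is higher with FcMR than with isotype at each time, at means of 4.67 against 2.43, 3.26 against 1.56 and 1.76 against 0.870. The ratio of Tlr1 to Tlr6 depends on how reads shared by these genes were assigned.

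The remaining mouse family genes were low. Tlr5, the flagellin receptor, had 0 to 25 counts and did not pass the filter. Tlr11 had 3 to 100 counts, with group means of 0.555 to 1.67 CPM. Tlr12 had 1 to 53 counts, with group means of 0.280 to 1.39 CPM.

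Patterns over the 21 libraries were compared by Pearson's r of log2 CPM among 8003 protein-coding genes with a mean of at least 10 CPM. As a description, since libraries share groups, depth and GC tilt, the most alike gene was Serpinb9b for Tlr1 (r = 0.984), Ak4 for Tlr2 (0.966), Ifi209 for Tlr3 (0.988), Cnot6l for Tlr4 (0.936) and Cd200 for Tlr6 (0.962). It was Ncoa7 for Tlr7 (0.957), Msr1 for Tlr8 (0.963), Med13l for Tlr9 (0.956) and Apobec1 for Tlr13 (0.977). The next most alike were Ms4a6c for Tlr1 (0.984), N4bp1 for Tlr2 (0.965), Trim34a for Tlr3 (0.985), Ranbp9 for Tlr4 (0.920) and Casp1 for Tlr6 (0.962). They were Clec4a1 for Tlr7 (0.956), Sptbn1 for Tlr8 (0.962), Nfkbid for Tlr9 (0.950) and Abhd5 for Tlr13 (0.970). Among the receptors themselves, r was 0.946 between Tlr1 and Tlr6, 0.937 between Tlr3 and Tlr7, 0.921 between Tlr8 and Tlr13, and −0.853 between Tlr2 and Tlr13. The value for Tlr1 and Tlr6 also depends on how their shared reads were assigned.

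The genes around the receptors were described in 5 lists, whose members were chosen with earlier results known. The highest and the lowest called gene of each list is named, and the others named here were chosen after their values were seen. Beside the counts of FcMR against isotype stand the shares of all genes called higher, 8.62%, 8.61% and 11.4%, and lower, 9.13%, 7.49% and 9.44%, at the 3 times. Of 12 co-receptors and chaperones, Cd14 alone was higher with FcMR than with isotype at each time. None was lower at 4 h, 2 were lower at 12 h and 6 at 24 h. The median log2 fold change was −0.04, −0.16 and −0.39. The lowest at 12 and 24 h was Lgmn, an endosomal protease that can cleave TLR9, at −0.84 (SE 0.0834) and −1.75 (SE 0.0852), with edgeR adjusted p of 1.17e-06 and 1.38e-10. Lgmn was at 352 ± 7.48 CPM with isotype and 196 ± 16.1 with FcMR at 12 h (SD, n = 3), and at 627 ± 20.3 and 186 ± 16.1 CPM at 24 h. Cd180, Cd36, Ctsb, Ctss and Ly86 were the others lower at 24 h. Unc93b1, the chaperone, was at 0.11, −0.43 and −0.43 and was not called.

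Of 16 tested adaptors and proximal kinases, 5, 3 and 5 were higher and 0, 0 and 1 lower at 4, 12 and 24 h, with medians of 0.13, 0.10 and 0.10. The share of all genes called was 17.7%, 16.1% and 20.9%, and the adaptors called at 12 h, 3 of 16, were near it. Tbk1 was higher at all 3 times, by 0.35, 0.31 and 0.22 on the log2 scale. Pik3ap1, an adaptor that links Toll-like receptors to PI3-kinase, was highest at 4 h at 0.69 (SE 0.176) and lowest at 24 h at −0.78 (SE 0.176), with edgeR adjusted p of 0.0107 and 0.0035. Ikbke at 0.48 (SE 0.138) led at 12 h and Traf6 at 0.62 (SE 0.122) at 24 h. Of 14 inhibitors of the pathway, 6, 6 and 5 were higher and 1, 2 and 1 lower, with medians of 0.53, 0.46 and 0.29. Socs3, a feedback inhibitor of cytokine signalling, led at 1.72 (SE 0.304), 2.15 (SE 0.309) and 1.70 (SE 0.322). Irak3, Nfkbia and Tnfaip3 were also higher at all 3 times. The lowest were Inpp5d at −0.74 (SE 0.107) at 4 h and −0.57 (SE 0.105) at 24 h, and Sigirr at −1.03 (SE 0.319) at 12 h.

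Target genes of the pathway were nearly all higher with FcMR, 12 of 12 at 4 h and 11 of 12 at 12 and 24 h, with medians of 2.60, 2.03 and 2.30 beside −0.07, −0.02 and 0.01 over all genes. Il6 led at 4 h at 3.31 (SE 0.233) and at 12 h at 4.01 (SE 0.245), and Il1b at 24 h at 4.37 (SE 0.163). Ifnb1, the interferon-beta gene, was the target not called at 12 and 24 h, and at 24 h it was at means of 0.0684 CPM with isotype and 0.0955 CPM with FcMR, too low for a fold change. Of 15 other pattern recognition receptors, 8, 9 and 8 were higher and 1, 1 and 0 lower, with medians of 0.70, 0.55 and 0.56. Ifih1, a cytosolic sensor of double-stranded RNA, led at 4 h at 1.30 (SE 0.131). Clec4e, the C-type lectin Mincle, led at 12 h at 1.801 (SE 0.146) and at 24 h at 4.12 (SE 0.161), where it stood at 191 ± 7.33 CPM with isotype and 3328 ± 762 CPM with FcMR (SD, n = 3). Clec7a, the beta-glucan receptor Dectin-1, was lowest at 4 and 12 h, at −0.76 (SE 0.14) and −0.81 (SE 0.14).

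In the isotype libraries against untreated cells, 6, 7 and 5 of the 12 co-receptors and chaperones were higher and 3, 2 and 2 lower at 4, 12 and 24 h. Over all genes 35.6%, 41.6% and 42.2% were called at these times, and the adaptors, at 8, 8 and 6 of 16, were not far from that. Cd180, which modulates TLR4 responses, was highest at all 3 times, at 1.33, 1.58 and 1.98 on the log2 scale, and Ly86, which encodes its partner MD-1, was lowest at −0.86, −1.53 and −1.27. Of the 16 adaptors 8, 5 and 3 were higher and 0, 3 and 3 lower. Myd88 led them at 4 h at 1.013 and Pik3ap1 at 12 and 24 h at 1.68 and 1.60, while Map3k7 and Traf3 were lowest at 12 and 24 h at −0.55 and −1.03. Of the 14 inhibitors 5, 5 and 3 were higher and 4, 5 and 7 lower. Nlrc5 led them at 3.03, 2.87 and 2.15, and the lowest were Sigirr at 4 h at −1.52 and Il1rl1 at 12 and 24 h at −2.45 and −2.72. Of the 12 targets 12, 7 and 4 were higher and 0, 1 and 5 lower, with Il6 highest at 4 h at 5.52 and Ccl5 at 12 and 24 h at 4.24 and 3.76. Nfkbiz was lowest at 12 h at −0.85 and Cxcl10 at 24 h at −2.52. Of the 15 other pattern recognition receptors 13, 10 and 8 were higher and 0, 2 and 3 lower, with Ifih1 highest at 4 h at 3.97 and Zbp1 at 12 and 24 h at 4.40 and 3.49. Nlrp3 and Nod2 were lowest at 12 and 24 h at −1.34 and −1.78.

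In the FcMR libraries against the same untreated cells, 6, 5 and 5 co-receptors and chaperones were higher and 3, 2 and 2 lower. Over all genes 48.2%, 48.1% and 51.4% were called, and the co-receptors, at 9, 7 and 7 of 12, and the adaptors, at 7, 7 and 6 of 16, are to be read against that. Cd180 was highest at 4 and 12 h at 1.25 and 1.43 and Cd14 at 24 h at 1.27, and the lowest were Cnpy3 at 4 h at −1.12 and Ly86 at 12 and 24 h at −1.63 each. Of the adaptors 7, 6 and 5 were higher and 0, 1 and 1 lower, led by Myd88 at 4 h at 1.68 and by Pik3ap1 at 12 and 24 h at 1.73 and 0.82, with Map3k7 and Traf3 lowest at −0.58 and −0.59. Of the inhibitors 7, 5 and 2 were higher and 4, 2 and 5 lower, led by Nlrc5 at 4 and 24 h at 4.13 and 2.29 and by Socs1 at 12 h at 3.72. Sigirr was lowest at 4 h at −1.58 and Il1rl1 at 12 and 24 h at −2.51 and −3.52. Of the targets 12, 11 and 7 were higher and 0, 0 and 3 lower, led by Il6 at 8.83, Il12b at 6.34 and Ccl5 at 5.50, with Tnf lowest at 24 h at −1.24. Of the other pattern recognition receptors 13, 10 and 12 were higher and 1, 1 and 2 lower, led by Ifih1 at 4 h at 5.26 and Zbp1 at 4.95 and 4.08, with Clec7a lowest at −0.81 and −0.46 and Nod2 at 24 h at −0.70.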

How the data were processed

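RNA libraries (TruSeq RNA v2, 100 ng RNA, 75 bp single-end reads), per the labels' protocols, were deposited by the authors as estimated counts per gene and as a table of normalized values, a signal used only as an alternative. The submitters' processing notes name CASAVA 1.8.2, kallisto 0.44.0, DESeq2, mm10 and GRCm38, and the annotation used is not given in the sources used here. Symbols, positions and lengths came from GENCODE M21 (GRCm38), which matched 23187 of 23250 genes, and promoter windows from the RefSeq table (GRCm38.p6). Of the 9 receptors, 7 have a window there, and Tlr4 and Tlr7 have none.

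The estimated counts, deposited by the authors, were rounded. Genes were kept by edgeR's filterByExpr (minimum count 10), scaled by TMM and fitted over all 21 libraries and 7 groups with edgeR 4.0.16 under R 4.3.3 (quasi-likelihood F test), with Benjamini-Hochberg adjustment over 13468 genes. The joint test asked whether the FcMR effect differed over 3 times. The design had assumed whole-number counts. Depth varied 12.1-fold between libraries, so precision differs between them. On data simulated for FcMR against isotype at 4 h over 13468 genes, 20.9% of 1.5-fold, 47.8% of 2-fold and 78.8% of 4-fold changes were recovered. In these simulated data 67, 67 and 66 genes had those changes, and all other genes were level over the 7 groups. Noise was independent between genes, without the GC tilt. In the real comparison 2390 genes were called, so these shares do not give its power.

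Alternatives were RLE factors, other filters, DESeq2 1.42.0, limma 3.58.1 with voom, limma on log2 of the authors' normalized values plus 1, fits of the compared groups alone, a GC offset, a replicate block, thinning to the smallest library, and leaving out libraries. The authors' factors as offsets and the sum of Tlr1 and Tlr6 were added after seeing the data. Groups came from the sample titles. All 9 receptors were named throughout, with the 2 genes most like each in pattern and the highest and lowest called gene of each list. The members and lists were chosen with earlier results of these data known.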

Additional observations from a re-analysis of the deposited data

Results flagged for a closer look

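The difference between FcMR and isotype changed over 4, 12 and 24 h for 3 receptors in the joint edgeR test. For Tlr2, which pairs with Tlr1 or Tlr6, the adjusted p was 2.83e-06, with log2 fold changes of 0.21, 1.04 and 1.76, and FcMR libraries were above isotype libraries in all 3 of 3 at each time. For Tlr1 the adjusted p was 0.00415, with log2 fold changes of 0.14, 1.18 and 1.04. With limma on the authors' normalized values the adjusted p of Tlr1 was 0.0597. For Tlr9 the adjusted p was 0.0127, with log2 fold changes of 0.63, −0.44 and −0.62, of which the first and the last were called at single times. Those 2 calls were lost in 5 and 20 of 34 alternatives.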

How the results depend on the processing

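Some log2 fold changes, at −0.24 to 0.29 and not called in the main fit, changed sign in some alternatives, and the cause was not tested. For FcMR against isotype, Tlr8 at 4 h was 0.15 with limma on the authors' normalized values and 0.10 with the authors' factors. Tlr4 at 12 h was 0.10 and 0.11 with these, 0.06 without FcMR 12 h replicate 3 and 0.086 without isotype 12 h replicate 1, with a range of −0.16 to 0.086 on leaving out 1 library. Tlr4 at 24 h was −0.12 with the GC offset, with and without the replicate block, −0.072 and −0.044 with the authors' values and factors, −0.15 without FcMR 24 h replicate 2 (range −0.15 to 0.20 on leaving out 1 library) and −0.072 after thinning. Tlr3 at 24 h was −0.084 and −0.0029 with the authors' values and factors, and Tlr7 at 24 h was −0.0060 without FcMR 24 h replicate 2 (range −0.0060 to 0.40). For isotype against untreated, Tlr4 at 4 h was −0.10 without a filter, −0.074 with voom, −0.019 with the replicate block, −0.41 with the GC offset with or without the block, −0.043 with the authors' values, −0.05 without untreated replicate 1 and −0.31 without isotype 4 h replicate 2 (range −0.31 to 0.23). Tlr4 at 24 h was −0.0028 and −0.0055 with the GC offset without and with the block. For FcMR against untreated, Tlr9 at 4 h was −0.052 without untreated replicate 3 and −0.010 without FcMR 4 h replicate 2 (range −0.052 to 0.17), and Tlr2 at 12 h was −0.0068 and −0.0084 with the GC offset without and with the block. Tlr4 at 24 h was there −0.12 and −0.12 with the GC offset without and with the block, −0.053 with the authors' values, −0.047 without FcMR 24 h replicate 2 (range −0.047 to 0.29) and −0.027 with the authors' factors.

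Counts of called genes for FcMR against isotype at 4 h were 2390, and 868 with only the groups compared, 3939 with the GC offset, 4031 with block and GC offset and 3898 without both libraries out of title order. The receptors called were 4, and 1, 7 and 7 under the first 3 of these. At 12 h the genes were 2169, and 3507 and 3700 with the GC offset without and with the block, and at 24 h 2813, and 4245 with both. For isotype against untreated at 4 h they were 4792, and 2881 with only the groups compared. In the joint test they were 1484, and 925 without a filter, 983 after thinning, 2616 without both libraries, 3086 with the GC offset and 3321 with block and GC offset, with 6 and 8 receptors under the last 2. Leaving out 1 library at a time gave 1589 to 3151 genes and 2 to 5 receptors for FcMR against isotype at 4 h, 1570 to 2469 and 3 to 6 at 12 h, and 2091 to 3161 and 4 to 5 at 24 h. It gave 3784 to 6251 and 6 to 8, 4577 to 6097 and 8 to 8, and 4876 to 6217 and 8 to 8 for isotype against untreated. It gave 5478 to 7039 and 6 to 7, 5817 to 7002 and 6 to 6, and 6075 to 7533 and 8 to 8 for FcMR against untreated, and 973 to 2294 and 3 to 4 in the joint test. The 973 came without FcMR 4 h replicate 2 and the 2294 without isotype 4 h replicate 3.

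Correlations between the deviations of same-numbered replicates were −0.166 to 0.199 for FcMR against isotype (at 12 h 0.199, 0.0457 and 0.073), −0.164 to 0.338 for isotype against untreated and −0.367 to 0.278 for FcMR against untreated. No comparison had all 3 over 0.1, so the numbers were not taken as pairs. The replicate block gave 2541, 2290 and 2911 genes and 5, 5 and 4 receptors at 4, 12 and 24 h, adding Tlr4 at 4 h and losing Tlr9 at 24 h.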
